A study of Mus musculus with 6 samples.

Results

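The 43 genes described here are the chemokines and chemokine receptors of a skin RNA-Seq count table: 30 ligands and 13 receptors, taken by Ensembl identifier through the GENCODE M21 annotation of GRCm38. All 43 were among the 26579 genes of the table. Female littermates were sampled at postnatal day 33, at the back of the neck, and the groups were wild type (WT) and YAP2-5SA-∆C transgenic (TG), with 3 mice in each. The skin phenotype of the TG mice had begun to be visible at that age. The transgene expresses a mildly active mutant of YAP, the transcriptional cofactor of the Hippo pathway, in basal keratinocytes, and the biopsies were whole skin, so epidermis, hair follicles, dermis, fat, muscle, vessels and resident immune cells were measured together. Each library was 1 mouse. Genotype is the only difference between the groups in the labels, and no other allele or treatment is given for either.

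Chemokines are small secreted proteins that guide leukocytes along gradients, and their receptors are G protein-coupled receptors on the leukocytes that follow them. In skin, some ligands are made all the time by keratinocytes, fibroblasts or vessels and hold resident cells in place, while others appear after injury or inflammation and bring in monocytes, neutrophils or T cells. Atypical receptors bind chemokines without signalling through G proteins and remove or present them.

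Total counts per library ranged from 11225705 to 19505036. The keratinocyte markers (Krt5, Krt14, Krt1, Krt10 and Trp63) summed to 5697 to 6761 CPM (counts per 1000000 counts of the library, scaled by TMM) in WT and 8881 to 13156 CPM in TG, abundant in every library as the skin label has it. TG replicate 2 stood apart in the hair shaft and inner root sheath markers, at 1263 CPM against 6075 and 7827 CPM in the other TG libraries and 11420 to 13977 CPM in WT. Skeletal muscle markers also varied among the mice, from 1096 to 5871 CPM in WT and from 987 to 2781 CPM in TG.

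Of the 43 genes, 30 reached 1 CPM in at least 3 libraries and were tested, 21 ligands and 9 receptors. The edgeR quasi-likelihood test called 4 of them at a false discovery rate (FDR, Benjamini-Hochberg over all 15102 tested genes) under 0.05, and all 4 were higher in TG: the ligands Cxcl16, Ccl9 and Ccl27a and the receptor Cxcr2. The same test called 1.91% of all tested genes in either direction and 1.44% as higher in TG. Another 10 members had an FDR between 0.05 and 0.1, of which 9 were higher in TG and 1, Cxcl14, was lower. Of the 9, Cxcl2 passed the expression filter through its TG libraries alone. In all, 14 members were under an FDR of 0.1, against 1964 of all 15102 tested genes.

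**Figure D1:**
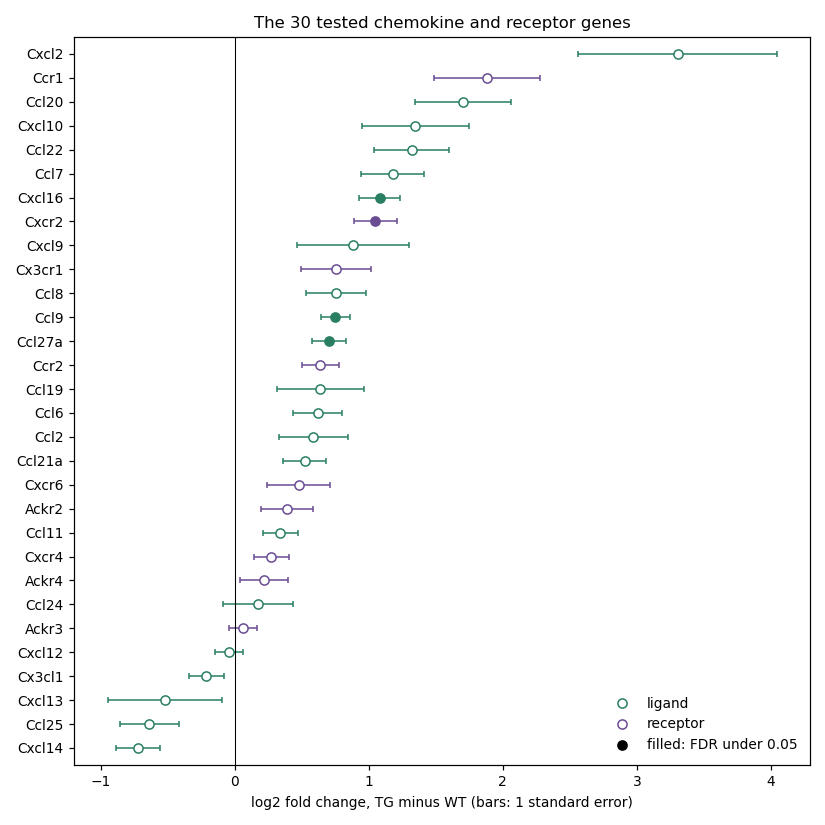
Log2 fold change of TG over WT (x axis) for the 30 tested genes, ordered by size, with bars of 1 standard error, ligands in green and receptors in purple. The filled points are Cxcl16, Cxcr2, Ccl9 and Ccl27a, and the 5 genes below 0 are all ligands.

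The log2 fold change was above 0 for 25 of the 30 tested members and below 0 for 5, with a median of 0.63 against -0.01 over all tested genes. For ligands the median was 0.64 and for receptors 0.48. All 3 TG libraries lay above all 3 WT libraries for 17 of the 30, where 15.5% of all tested genes did so, and below them for 2, where 18.2% of all tested genes did. Cxcl2 passed the expression filter through its TG libraries alone, so its place in these counts follows from the filter. With 3 mice against 3, the smallest two-sided p of an exact permutation test of a single gene is 0.1, so the calls rest on the spread that edgeR shares across genes.

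The larger CC ligand group holds attractants of monocytes and macrophages, among them the ligands of CCR1 and CCR2. Ccl9, a mouse ligand of CCR1, was at 15.4, 16.6 and 19.6 CPM in WT 1, 2 and 3 and at 30.5, 26.7 and 29.4 CPM in TG 1, 2 and 3. Every TG library was above every WT library. Ccl9 rose by 0.75 ± 0.11 on the log2 scale (SE, n = 3 mice per genotype), a 1.68-fold ratio of the means, with an FDR of 0.0398. Its neighbour Ccl6, also a CCR1 ligand, read 18.5, 26.7 and 27.1 CPM in WT and 39.5, 29.8 and 41.7 CPM in TG. The Ccl6 groups did not overlap, but the gap between them was narrow, and the log2 difference of 0.62 ± 0.18 had an FDR of 0.0941.

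Ccl8 was the ligand with the highest level per kilobase of exon in either genotype (58.1 CPM per kb in WT and 98.2 in TG); in mice it also acts on CCR8. Ccl8 was at 26.8, 28.8 and 33.5 CPM in WT and 35.5, 47.6 and 67.3 CPM in TG. The 3 TG libraries differed among themselves by more than the WT libraries did, and the log2 difference of 0.76 ± 0.22 had an FDR of 0.0926. Ccl7, a ligand of CCR2, read 1.87, 1.57 and 2.00 CPM in WT and 3.84, 3.12 and 5.30 CPM in TG. That is a 2.26-fold ratio without overlap, with a log2 change of 1.18 ± 0.24 and an FDR of 0.0531, just outside the threshold. Ccl2, the best known monocyte attractant, overlapped between the genotypes at 1.48, 1.73 and 2.47 CPM in WT and 3.06, 2.12 and 3.18 CPM in TG (0.59 ± 0.26, FDR 0.199).

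The other 4 ligands of this group were too low to test. Ccl3 had 5, 2 and 1 counts in WT and 26, 6 and 17 counts in TG, and Ccl4 had 3, 0 and 0 counts in WT and 11, 4 and 8 counts in TG. Both are made by activated macrophages and neutrophils among other cells, and in both TG replicate 2 was the lowest TG library. Ccl5, a T cell and monocyte attractant, had at most 3 counts in any library, and its CPM values in TG lay just above those in WT. Ccl12, a mouse CCR2 ligand, had 6 to 17 counts in WT and 11 to 17 in TG, with overlapping CPM values. A count of 0 allows up to 3 counts, which is 0.157 to 0.285 CPM in these libraries and covers counting error only.

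The CXCR2 ligands, which attract neutrophils, were low in WT, with at most 10 counts of any of them in a library. Cxcl5 had 2, 2 and 6 counts in WT 1, 2 and 3 and 124, 5 and 71 counts in TG 1, 2 and 3. Cxcl2 had 10, 1 and 3 counts in WT against 79, 18 and 55 in TG. Cxcl1 had 5, 4 and 6 counts in WT against 23, 8 and 17 in TG, and Cxcl3 had 2, 0 and 0 counts in WT against 16, 2 and 19 in TG. TG replicates 1 and 3 were high in all 4 genes, whereas TG replicate 2 was low in all 4 and lay inside the WT range of CPM values for Cxcl1 and Cxcl5. Only Cxcl2 passed the expression filter, with a log2 change of 3.30 ± 0.74 and an FDR of 0.0618. Without the filter the FDR was 0.0808 for Cxcl5, 0.0771 for Cxcl3 and 0.149 for Cxcl1. Summed, the 4 genes came to 1.04, 0.366 and 1.43 CPM in WT and 13.5, 1.94 and 10.1 CPM in TG.

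These 4 genes are neighbours on mouse chromosome 5, within 147 kb (GRCm38 chr5:90759360-90905938). The promoter windows of Cxcl1, Cxcl2 and Cxcl3 each hold a kappa B site, the motif of NF-kappa B factors, and the 30 bases around it are shown because the letters of the motif are the same in all 3. Cxcl5 had no match, either for want of a site or for want of a window. Capitals mark the motif, read 5′ to 3′ on the plus strand from the RefSeq promoter table of GRCm38.p6. The sites begin 71 bases before the transcription start in Cxcl1 (chr5:90891164-90891193), 97 bases before it in Cxcl2 (chr5:90903792-90903821) and 73 bases before it in Cxcl3 (chr5:90786018-90786047). Outside the motif the flanks differ, and over the 30 bases Cxcl1 and Cxcl2 share 23 positions, Cxcl1 and Cxcl3 share 19, and Cxcl2 and Cxcl3 share 17.
Cxcl1: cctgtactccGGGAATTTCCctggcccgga
Cxcl2: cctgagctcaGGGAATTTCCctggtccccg
Cxcl3: gagctgcgggGGGAATTTCCccagcccggg

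Kappa B sites were searched on both strands of all windows, and 10 of the 36 member windows held one (27.8%), against 8.46% of all 32851 windows of the table, which reach from 250 bases before to 50 bases after the start. The 36 windows belong to 32 of the 43 genes. For comparison, the TEAD motif GGAATG was in 16.7% of member windows against 14.7% of all, the AP-1 motif TGANTCA in 11.1% against 7.81%, the STAT motif TTCNNNGAA in 8.33% against 8.30% and the interferon-stimulated response element in 8.33% against 3.44%. In the member windows no match of one motif shared bases with a match of another. Besides the 3 genes above, the windows with a kappa B site belonged to Ccl20, Cxcl10, Ccl9, Ccl27a, Ccr1, Ccr6 and Ackr2. Shown are sites of Ccl20 (chr1:83116676-83116705, plus strand), Cxcl10 (chr5:92349029-92349058, minus strand) and Ccl9 (chr11:83578652-83578681, minus strand), picked as ligands with a site before the start and TG libraries that did not overlap WT. Cxcl10 also has matches that begin 104 and 103 bases before the start, nearer to it than the one shown at 159. The capitals of Ccl20 and Ccl9 match the motif on the strand opposite to the gene. Ccl27a, whose site lies after the start, Cxcl2, Cxcl3, Ccr1 and Ccr6 also lay above WT in every TG library, and Cxcl1 and Ackr2 overlapped. Of all 43 members, with a site or without, 23 lay above WT in this way, and of all tested genes 15.5%. Whether a site goes with higher TG values was not tested. A match describes letters in a window and not binding, which was not measured.
Ccl20: aatcaatgggGGAAAACCCCgggtgagaac
Cxcl10: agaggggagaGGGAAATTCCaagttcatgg
Ccl9: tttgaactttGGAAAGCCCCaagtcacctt

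**Figure D2:**
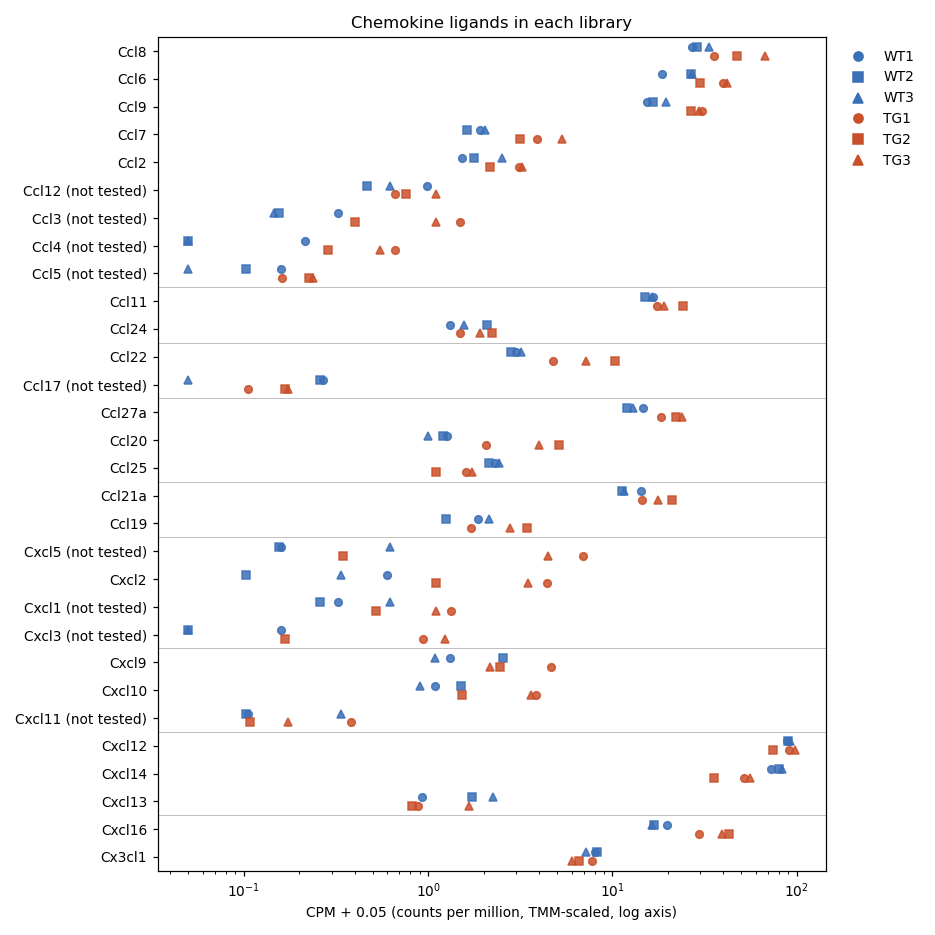
CPM plus 0.05 on a log axis for the 30 ligands in each of the 6 libraries, WT in blue and TG in red, with 1 marker shape per replicate number and lines between receptor groups. For the 4 CXCR2 ligands TG replicate 2 (red square) is the lowest TG library in each.

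Ccl20, which attracts CCR6-bearing Langerhans cell precursors and T cells, was at 1.21, 1.15 and 0.951 CPM in WT and 2.00, 5.06 and 3.93 CPM in TG. Ccl22, a CCR4 ligand made by dendritic cells and macrophages, was at 2.97, 2.77 and 3.14 CPM in WT and 4.73, 10.3 and 7.11 CPM in TG. In both genes TG replicate 2 was the highest library and TG replicate 1 the lowest of the TG group, and no TG value fell into the WT range. The log2 changes of 1.70 ± 0.36 for Ccl20 and 1.32 ± 0.28 for Ccl22 had FDR values of 0.0575 and 0.0576. Ccl17, the other CCR4 ligand, had 4, 4 and 0 counts in WT and 1, 2 and 2 in TG and was not tested.

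Ccl27a, the keratinocyte chemokine that holds CCR10-bearing T cells in skin, was at 14.5, 11.9 and 12.9 CPM in WT and 18.4, 21.9 and 23.8 CPM in TG. Ccl27a rose by 0.70 ± 0.12 on the log2 scale (FDR 0.0456), with no overlap. Of the 5 keratinocyte markers, Krt14 was called (0.95 ± 0.11, FDR 0.0300), where 1.91% of all tested genes were. The log2 change was 0.72 for Krt5, 0.72 for Krt1, 0.58 for Krt10 and 0.09 for Trp63. The part of keratinocytes in the Ccl27a result was not tested. Of the 75-base words of the Ccl27a transcripts, 33.3% also occur in copies of the gene, so reads from those stretches could not be placed uniquely and its level is uncertain. Ccl25, known as a thymic and intestinal ligand of CCR9, had lower values in TG and did not pass the test, at 2.25, 2.09 and 2.38 CPM in WT and 1.56, 1.06 and 1.68 CPM in TG (-0.64 ± 0.22, FDR 0.129).

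The CCR7 ligands guide dendritic cells and naive T cells into lymphatic vessels and lymph nodes. Ccl21a, made by lymphatic endothelium, was at 14.3, 11.199 and 11.5 CPM in WT and 14.5, 21.1 and 17.6 CPM in TG. The lowest TG library exceeded the highest WT library by little, and the log2 difference of 0.52 ± 0.16 had an FDR of 0.106. Lymphatic endothelial markers summed to 25.2 to 26.5 CPM in WT and 24.8 to 30.9 CPM in TG, and none of the 3 was called by edgeR, voom or DESeq2 or had an unadjusted p under 0.05. Ccl19 overlapped between the groups (0.64 ± 0.32, FDR 0.257). Both genes lie among near-identical copies: 61.3% of the 75-base words of Ccl21a and 45.3% of those of Ccl19 occur in another gene.

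The CCR3 ligands, eosinophil attractants, differed little between the genotypes. Ccl11 was at 16.6, 15.02 and 16.3 CPM in WT and 17.5, 24.1 and 19.1 CPM in TG, a 1.27-fold ratio without overlap (0.34 ± 0.13, FDR 0.154). Ccl24 overlapped (0.18 ± 0.26, FDR 0.703). Eosinophil markers were near the floor in every library, at a sum of 0.381 to 0.576 CPM in WT and 0.765 to 1.31 CPM in TG.

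Of the CXCR3 ligands, which interferons induce and which attract effector T cells, Cxcl10 was at 1.04, 1.47 and 0.856 CPM in WT and 3.78, 1.47 and 3.56 CPM in TG. TG replicate 2 was level with the highest WT library, and TG replicates 1 and 3 were well above. The log2 difference of 1.35 ± 0.40 had an FDR of 0.0941. Cxcl9 was at 1.26, 2.51 and 1.05 CPM in WT and 4.62, 2.41 and 2.12 CPM in TG, with overlap (0.88 ± 0.42, FDR 0.231). Cxcl11 had 1 to 3 counts in WT and 1 to 6 in TG and was not tested, and 39.8% of its 75-base words are shared with a pseudogene.

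The homeostatic CXC ligands were the only ligand group with no member above 0 on the log2 scale. Cxcl14, which keratinocytes make without a stimulus, was at 72.2, 80.4 and 83.5 CPM in WT and 51.8, 35.5 and 56.0 CPM in TG. All TG libraries were below all WT libraries, TG replicate 2 the furthest, with a log2 change of -0.72 ± 0.16 and an FDR of 0.0621. Hair shaft and inner root sheath markers ranked the TG libraries the same way, and their part in the result was not tested. Cxcl12, the stromal ligand of CXCR4, had the highest CPM of all members and differed by -0.04 ± 0.10, at 88.6, 89.9 and 92.2 CPM in WT and 91.0, 73.9 and 98.0 CPM in TG (FDR 0.827). Cxcl13, a B cell attractant, overlapped at 0.880 to 2.19 CPM in WT and 0.765 to 1.62 CPM in TG (-0.52 ± 0.43, FDR 0.472).

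Of the 2 ligands that are made as membrane proteins and then shed, Cxcl16 was called and Cx3cl1 was not. Cxcl16, the ligand of CXCR6, was at 19.6, 16.8 and 16.3 CPM in WT and 29.4, 43.1 and 39.3 CPM in TG. It rose by 1.08 ± 0.15 on the log2 scale, a 2.12-fold ratio, and its FDR of 0.0382 was the lowest of the 43 genes. Its exons overlap those of Zmynd15 on the opposite strand by 552 of 3021 bases, and the strand setting of the counting is not given in the sources used here. Zmynd15, looked at because of this overlap and outside the fixed naming rule, had 16 to 21 counts in WT and 26 to 35 in TG, where Cxcl16 had 171 to 357 and 528 to 732. The same limit holds for Ccl25 (204 bases shared with Elavl1), Cxcl10 (133 with Art3), Ackr4 (479 with Acad11), Ccl27a (8 with Il11ra1), Cx3cr1 (78 with Gm33858) and the untested Cxcl11 (1582 with Gm2673). Cx3cl1, the ligand of CX3CR1, was at 8.03, 8.16 and 7.14 CPM in WT and 7.68, 6.53 and 5.99 CPM in TG (-0.21 ± 0.13, FDR 0.344).

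Among the signalling receptors, Cxcr2 was called. This receptor, carried by neutrophils and also by some other cells including keratinocytes, was at 5.11, 6.23 and 7.61 CPM in WT and 14.1, 13.2 and 11.7 CPM in TG. All 3 TG libraries were close together and above WT, TG replicate 2 included, with a rise of 1.05 ± 0.16 on the log2 scale (2.06-fold, FDR 0.0401). Neutrophil markers summed to 3.79 to 5.71 CPM in WT and 7.59 to 15.9 CPM in TG. Of that list of 8, 7 were in the table and only Csf3r was abundant enough to test, at 3.35, 3.77 and 4.95 CPM in WT and 14.5, 6.71 and 13.4 CPM in TG (FDR 0.0531). The other 6, among them the granule genes Ngp, Ltf, Mpo, Elane and Camp, had at most 0.834 CPM in any library, and the part of neutrophils in the Cxcr2 result was not tested.

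Ccr1, the receptor of Ccl6 and Ccl9, was at 1.54, 2.30 and 3.14 CPM in WT and 12.6, 4.94 and 7.61 CPM in TG. The groups did not overlap, but the TG libraries were spread widely, and the log2 difference of 1.88 ± 0.40 had an FDR of 0.0569. Ccr2, the receptor of inflammatory monocytes and the receptor with the highest CPM of the list, was at 30.5, 31.3 and 35.9 CPM in WT and 60.9, 43.2 and 47.9 CPM in TG (0.64 ± 0.14, FDR 0.0576). Per kilobase of exon Ackr3 was above it in WT, at 5.64 against 4.82 CPM per kb. Cx3cr1, found on monocytes and resident macrophages, was at 0.715, 0.994 and 1.33 CPM in WT and 1.56, 1.82 and 1.62 CPM in TG (0.76 ± 0.26, FDR 0.129). Macrophage and monocyte markers summed to 538 to 659 CPM in WT and 784 to 872 CPM in TG, all 10 lay above WT in every TG library (15.5% of all tested genes), and 2 of them, Csf1r and Mrc1, were called (1.91%). In whole skin more cells of a type and more RNA per cell cannot be told apart, and the part of macrophages in the receptor values was not tested.

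Receptors of T cells were low. Cxcr6 was at 0.880, 1.10 and 0.951 CPM in WT and 1.56, 1.41 and 1.12 CPM in TG (0.48 ± 0.23, FDR 0.244), and its groups were barely apart. Ccr6, the receptor of Ccl20, had 5, 6 and 1 counts in WT and 13, 17 and 17 in TG. Ccr7 had 9, 5 and 3 counts in WT and 10, 20 and 21 in TG. Both were untested and lay above WT on the CPM scale in every TG library. Ccr10, the receptor of Ccl27a, had 3, 4 and 2 counts in WT and 1, 1 and 0 in TG, lower on the CPM scale in every TG library, with at most 4 counts behind each value. Cxcr3 had 7 to 16 counts in WT and 16 to 18 in TG, with overlapping CPM values. T cell markers summed to 9.79 to 12.3 CPM in WT and 11.5 to 14.5 CPM in TG, and 0 of the 6 tested were called by the quasi-likelihood test, with 2 at an unadjusted p under 0.05 (3968 of all 15102 tested genes), 1 called by the likelihood-ratio test (Cd2, which passed the expression filter through its TG libraries alone) and 0 by voom and DESeq2.

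Cxcr4, the receptor of Cxcl12 on many leukocytes, overlapped at 8.08, 7.95 and 7.04 CPM in WT and 10.4, 8.001 and 9.55 CPM in TG (0.27 ± 0.13, FDR 0.230). The atypical receptors overlapped as well. Ackr3, which removes Cxcl12, was the most abundant of them at 17.6, 17.6 and 21.5 CPM in WT and 19.0, 20.9 and 19.0 CPM in TG (0.06 ± 0.10, FDR 0.744). Ackr2, which removes inflammatory CC ligands, differed by 0.39 ± 0.19 (FDR 0.250), and Ackr4, which removes the CCR7 ligands, by 0.22 ± 0.18 (FDR 0.473).

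**Figure D3:**
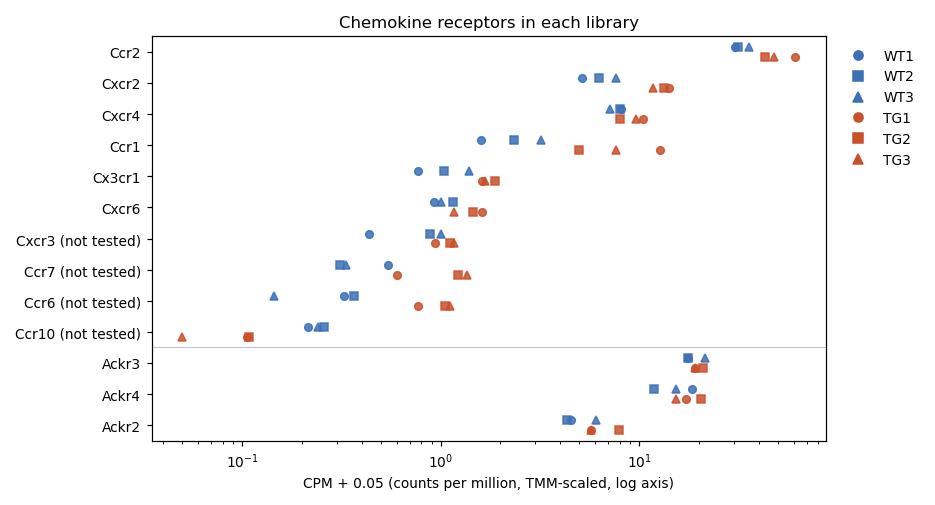
CPM plus 0.05 on a log axis for the 13 receptors in each library, with signalling receptors above the line and atypical receptors under it, WT in blue and TG in red. Ccr1, Ccr2, Cxcr2, Cxcr6, Cx3cr1 and the untested Ccr6 and Ccr7 lie above WT in every TG library. The untested Ccr10 lies below WT, and the other receptors overlap, the 3 atypical ones included.

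The ligand and receptor sides can be read together for some pairs. Ccl9 and Cxcl16 were called while their receptors Ccr1 and Cxcr6 were not, and Cxcr2 was called while its ligand Cxcl2 was not. Ccl27a was called, and its receptor Ccr10 had at most 4 counts in any library. For Cxcl12, neither Cxcr4 nor Ackr3 was called. Whether the changes of a ligand and its receptor differ was not tested.

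As a sum over the family, ligand counts were at 313, 325 and 341 CPM in WT and 380, 366 and 445 CPM in TG, and receptor counts at 88.6, 85.2 and 100.2 CPM in WT and 145, 125 and 123 CPM in TG. Neither sum overlapped between the genotypes. Cxcl12 and Cxcl14 together made up 51.3%, 52.4% and 51.5% of the ligand sum in WT and 37.6%, 29.9% and 34.6% in TG. These shares are of CPM, which counts reads and not molecules, so long transcripts such as Cxcl12 weigh more. Per kilobase of exon, Ccl8 led in WT at 58.1 CPM per kb, followed by Cxcl14 at 43.1, Ccl11 at 14.8, Ccl21a at 14.2, Ccl6 at 13.4 and Cxcl12 at 11.0. In TG the order on that scale was Ccl8 at 98.2, Cxcl14 at 26.1, Ccl6 at 20.6, Ccl21a at 20.4, Ccl11 at 18.7, Cxcl16 at 12.3 and Cxcl12 at 10.7 CPM per kb.

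**Figure D4:**
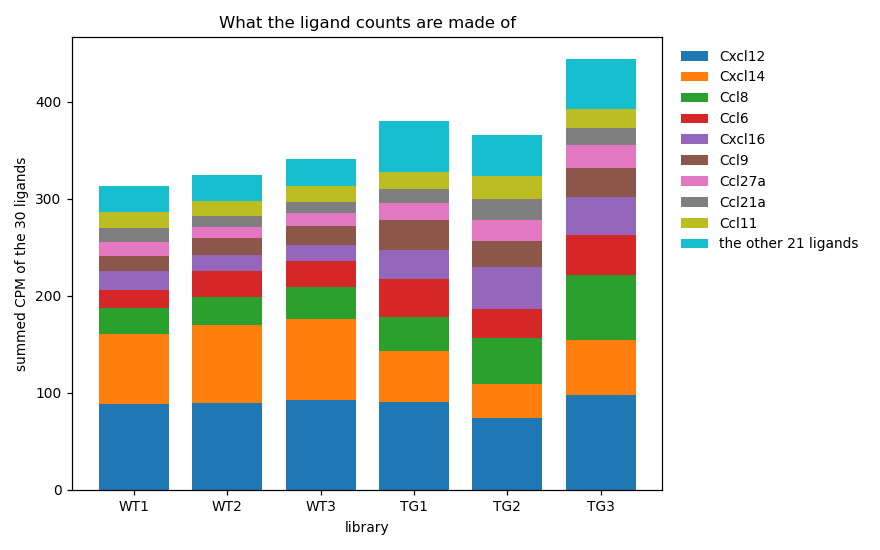
Stacked bars of the CPM of the 30 ligands in each library (y axis, from 0), with the 9 most abundant ligands coloured apart and the other 21 together. Cxcl12 and Cxcl14, the lowest blocks, make up 51.3 to 52.4% of each WT bar and 29.9 to 37.6% of each TG bar.

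TG replicate 2 was the highest TG library for 11 of the 30 tested members and the lowest for 13. These shares, 36.7% and 43.3%, lay near those over all tested genes, 36.3% and 37.1%. The 13 were Ccl2, Ccl6, Ccl7, Ccl9, Ccl25, Cxcl2, Cxcl10, Cxcl12, Cxcl13, Cxcl14, Ccr1, Ccr2 and Cxcr4. The 11 were Ccl20, Ccl22, Cxcl16, Ccl11, Ccl24, Ccl19, Ccl21a, Cx3cr1 and the 3 atypical receptors. For 4 of the 5 stress keratinocyte markers TG replicate 2 was the lowest TG library. Krt6b was at 429, 181 and 400 CPM and Krt16 at 343, 304 and 450 CPM in TG 1, 2 and 3, where WT had 23.5 to 72.5 CPM and 56.2 to 110 CPM. Krt17 of the same list lay below WT in every TG library, at 730, 475 and 870 CPM against 962 to 1213 CPM (-0.63 ± 0.22, FDR 0.128).

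**Figure D5:**
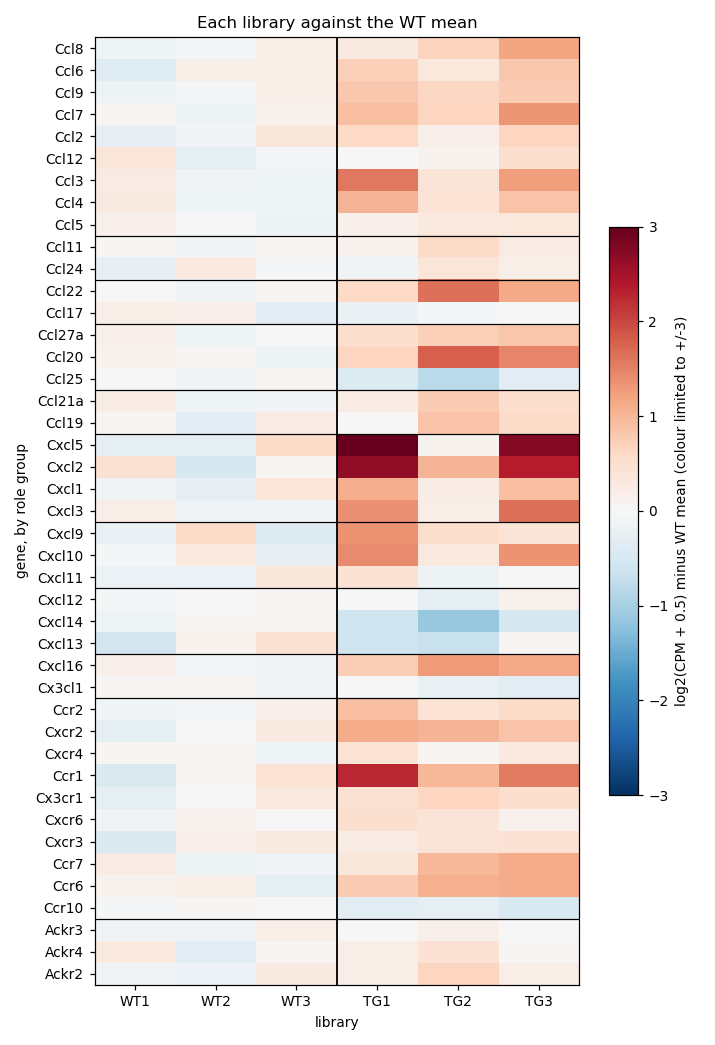
Colour map of log2(CPM + 0.5) minus the WT mean for the 43 genes (rows, by role group) in the 6 libraries (columns), limited to 3 in either direction. Cxcl5 reads 3.33, 0.11 and 2.75 in TG 1, 2 and 3, and Ccl22 reads 0.60, 1.64 and 1.14.

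Members also lie in clusters on the chromosomes. In the cluster on chromosome 11 that holds Ccl5, Ccl9, Ccl6, Ccl3 and Ccl4 (chr11:83525778-83664683, 139 kb), Ccl9 was called, Ccl6 did not overlap, Ccl3 and Ccl4 had more counts in TG but were untested, and Ccl5 was at the floor of 3 counts or under it. In the neighbouring cluster of Ccl2, Ccl7, Ccl11, Ccl12 and Ccl8 (chr11:82035571-82116799), Ccl7, Ccl11 and Ccl8 lay above WT in every TG library and Ccl2 and Ccl12 overlapped. On chromosome 8, Ccl22 lay above WT while the adjacent Cx3cl1 and Ccl17 overlapped. On chromosome 9, Cxcr6, Ccr1 and Ccr2 lay above WT in all TG libraries, while Xcr1 and Ccr3, chemokine receptor genes that lie between them, overlapped.

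Chemokine genes outside the 43 were read from a list of 22, of which 19 were in the table and 7 were tested. Of the 7, 3 were called, all higher in TG, where 1.44% of all tested genes were. Among them, Pf4, a platelet and macrophage chemokine, rose by 0.57 ± 0.09 (FDR 0.0429), and Ackr1, the chemokine receptor of venules, by 0.80 ± 0.15 (FDR 0.0477). Ccr4, the receptor of Ccl22, was at 5.17, 4.08 and 3.81 CPM in WT and 6.34, 9.77 and 6.99 CPM in TG (0.81 ± 0.20, FDR 0.0700).

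Of 22 genes that act downstream of chemokine receptors, 21 were tested and 3 were called, all higher in TG (1.44% of all tested genes): Vav1 (0.84 ± 0.10, FDR 0.0300) and Dock2 (0.51 ± 0.07, FDR 0.0398), which activate Rac for cell movement, and Pik3cg (0.64 ± 0.10, FDR 0.0398), the PI3-kinase that G proteins switch on. The median log2 change of this list was 0.26, against -0.01 over all tested genes. Vav1, Dock2 and Pik3cg are expressed mainly in blood cells. Dendritic and Langerhans cell markers summed to 24.5 to 26.1 CPM in WT and 32.0 to 40.6 CPM in TG, with Itgax called of 5 tested (1.91% of all tested genes), and mast cell markers to 155 to 174 CPM and 198 to 250 CPM, with Cma1 called of 6. Their part in these results was not tested.

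How many members were called depended on the test and on single mice. The likelihood-ratio test of edgeR called 14 of the 30, where it called 10.4% of all genes, DESeq2 called 14 (10.5% of all genes) and voom called 3 (1.65%). Both counts of 14 include Cxcl2, which passed the expression filter through its TG libraries alone. Without the expression filter the quasi-likelihood test called 9 of the 43 (1.87% of all genes). Leaving out TG replicate 2 gave 11 of 29 (5.46% of all genes), with Ccl6, Ccl7, Ccl22, Cxcl10, Ccr1, Ccr2 and the lower Cxcl14 added to the 4. Leaving out WT replicate 1 gave 0 member calls (0.949% of all genes), with 15 members and 3841 of all genes at an unadjusted p under 0.05. Leaving out WT replicate 2, WT replicate 3 or TG replicate 3 gave 0 calls among members and 0 among all genes (0%), with 16, 18 and 18 members and 2726, 2844 and 3691 of all genes at an unadjusted p under 0.05. Without TG replicate 1 the calls were Cxcl16, Ccl20 and Ccl22 (0.557% of all genes).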

How the data were processed

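Paired-end libraries from whole skin were prepared with a stranded Illumina kit and sequenced on a NextSeq. Per the labels, the authors aligned reads to GRCm38 with TopHat2 2.0.12 (the study's methods name another TopHat2 version) and Bowtie2 2.1.0 and deposited raw counts of uniquely mapped reads per Ensembl gene from HTSeq. The annotation release and strand setting are not given in the sources used here.

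The 15102 of 26579 genes that reached 1 CPM in 3 or more libraries were kept and scaled by TMM. The main test was the quasi-likelihood test of edgeR 4.0.16 in R 4.3.3, with Benjamini-Hochberg adjustment over all kept genes. The likelihood-ratio test, voom (limma 3.58.1), DESeq2 1.42.0, other scalings and filters, a block for the replicate number, and omission of each library in turn were alternatives. Standard errors are the log2 fold change divided by the square root of F. The tests were first tried on simulated counts. Exon lengths and positions came from GENCODE M21, in which 558 identifiers of the table are absent.

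The 43 genes and all gene lists were chosen with earlier results of these data known. Full values are given for members that were called or did not overlap and for the most abundant member of each role group. Members under 1 CPM are given as counts. No protein sequences were used. Values are printed for some genes of the wider family, and 1 of its 3 called genes is not reported here.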

Additional observations from a re-analysis of the deposited data

How the results depend on the processing

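Counts of called genes moved with the test, and RLE and upper-quartile scaling left the members' count at 4. The likelihood-ratio test and DESeq2 each called 14 members, 11 ligands (Cxcl2 among them) and 3 receptors. Among the other chemokine genes the likelihood-ratio test called 5, among signalling genes it called 6 and DESeq2 9, among upstream cytokine and NF-kappa B genes both called 4, and among all genes they called 1568 and 1583. Without a count filter 9 members (6 ligands, 3 receptors), 1 upstream gene and 497 of all genes were called, and upper-quartile scaling called 1 upstream gene. Leaving out 1 library at a time gave 0 to 11 members, 0 to 8 ligands, 0 to 3 receptors, 0 to 2 other chemokine genes, 0 to 3 signalling genes, 0 to 2 upstream genes and 0 to 817 of all genes, against 288 with all 6. Over the 30 members and these alternatives, 353 comparisons kept their direction and their side of the threshold, 34 passed it newly, 24 lost the call and 1 reversed: Cxcl12, from -0.04 to 0.084 without TG replicate 2 (FDR 0.533), in a range of -0.13 to 0.084 over the libraries left out. The causes were not tested.

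The labels name nothing but the number that replicates 1, 2 and 3 of the genotypes share, and which mice shared a litter is not given. Deviations of same-numbered libraries from their group means correlated at -0.34, -0.24 and -0.06. With 3 libraries centred on their own mean in each group, these values cannot show whether same-numbered mice were paired. A replicate block, which also costs degrees of freedom, gave 0 calls for members, ligands, receptors, other chemokine genes, signalling genes, upstream genes and all genes, with 17 members and 2949 of all genes at an unadjusted p under 0.05.

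The 13 untested members each had under 1 CPM in at least 4 of 6 libraries.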

Other observations

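A list of 17 cytokines and NF-kappa B genes that act upstream of many chemokines was read beside them, of which 15 were in the table and 11 were tested. The quasi-likelihood test of edgeR called 0 of the 11, with 10 at an unadjusted p under 0.05 (3968 of all 15102 tested genes). The likelihood-ratio test and DESeq2 each called 4 (10.4% and 10.5% of all tested genes) and voom 0 (1.65%). Il1b, a cytokine of activated myeloid cells, was at 2.47, 0.942 and 1.71 CPM in WT and 19.7, 3.29 and 14.5 CPM in TG, with a log2 change of 2.87 ± 0.67 and an FDR of 0.0634. TG replicate 2 was the lowest TG library for Il1b, as it was for Cxcl1, Cxcl2, Cxcl3 and Cxcl5. Nfkbiz, an NF-kappa B cofactor, was at 44.9, 42.6 and 42.6 CPM in WT and 53.0, 57.2 and 64.7 CPM in TG (0.43 ± 0.08, FDR 0.0531), with TG replicate 2 between the other TG libraries. Il1a, which keratinocytes store, was at 17.1, 13.4 and 15.03 CPM in WT and 21.9, 28.4 and 19.0 CPM in TG (0.61 ± 0.16, FDR 0.0810), and TG replicate 2 was the highest. Tnf overlapped between the genotypes (0.25 ± 0.20, FDR 0.479). Ifng and Il17f were at or near 0 in every library, and Il4 and Il13 stayed under 0.5 CPM.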
